A study of Mus musculus with 2 samples.

Results

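CTCF binding was examined around 8 genes that encode parts of the cohesin complex or proteins that load, release or modify it: Rad21, Smc3, Stag1, Nipbl, Pds5a, Pds5b, Esco1 and Esco2. The genes were taken as a named list from the GENCODE M1 annotation of the mouse genome build mm9, 8 of 22367 protein-coding genes on chromosomes 1 to 19, X and Y. The region of a gene was its body plus 50 kb on each side, and the 8 regions cover 1.67 Mb in all. They hold 36 of the 33756 CTCF peaks that the authors called on these chromosomes.

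Cohesin is a ring formed by the SMC1 and SMC3 proteins and RAD21, with a STAG protein bound to RAD21. NIPBL loads the ring onto DNA, the PDS5 proteins bind RAD21 and regulate how long the ring stays, and the ESCO acetyltransferases modify SMC3. CTCF binds DNA through its zinc fingers at a long, asymmetric motif, and cohesin that moves along chromatin is known to stop at CTCF sites in a way that depends on the direction of the motif.

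The data come from mouse embryonic stem cells (ESCs) of the R1/E line in which a bacterial artificial chromosome, integrated in the genome, expresses CTCF fused to LAP, a tag with GFP in it. Chromatin of these cells, fixed with 1% formaldehyde, was immunoprecipitated with a goat antibody against GFP in 1 library, called CTCF here, and with goat IgG in 1 control library, which a label also calls input DNA. There is no replicate of either library, so each interval below covers counting error only and each test compares these libraries, not conditions. Tags of 35 bp numbered 8391191 for CTCF and 7988889 for IgG. Ratios of the libraries were scaled to these totals.

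At most summits of the 8 regions the DNA carried a CTCF motif. A matrix was built from 192 CTCF motif matches that the study listed at its RAD21 binding sites in ESCs, with the consensus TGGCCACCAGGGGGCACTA. It found a match within 150 bp of 28 of the 36 summits, 77.8% (95% Wilson interval 61.9 to 88.3). The share over all deposited summits was 72.6%, which lies within that interval. At positions 2000 bp from the member summits 0 of 36 had a match, which allows a share of up to 8.33% by the limit of 3 counts and 9.64% by the Wilson interval, and over all peaks such positions had a match in 5.55%. The sites at the tallest motif-bearing summit of 7 regions are given in mm9 sequence, as examples of the motif. The tallest summits of the Esco1 and Esco2 regions, each 20 tags high, had no motif within 150 bp. For Esco2 the site is therefore at a lower summit. The Esco1 region also has lower summits with a motif, but no sequence of that region is given here. Each is written 5′ to 3′ along the motif strand, the 19 bases of the motif are in capitals, and the strand of the motif on the chromosome follows the coordinates.
Rad21, 28.7 kb before the start, chr15:51851917-51851945, plus strand: ttattTGAACAGCAGGGGGCTCCCagtca
Smc3, 21.3 kb before the start, chr19:53653595-53653623, minus strand: catcaTTGCCACTAGAGGGCGCTTcaaag
Stag1, 49.3 kb before the start, chr9:100448917-100448945, plus strand: ctcagAGACCAGAAGAGGGCACCAaattc
Nipbl, in an intron 38 kb after the start, chr15:8356403-8356431, minus strand: ttaatTGTCCTGTAGGTGGCATCTttata
Pds5a, 27.1 kb before the start, chr5:66116184-66116212, minus strand: accagTTACCGGTAGAGGTCGGTCttgag
Pds5b, 7.83 kb before the start, chr5:151468438-151468466, minus strand: gcgtcCATCCACCTGGGGGCGCCAagcac
Esco2, in an intron of Ccdc25 11.3 kb before the start, chr14:66464020-66464048, minus strand: ggcacAAAACACCAGAGGGCTCTAgacgt
The best match among them was that of Stag1, with an exact matrix p of 4.8e-09, and the weakest was that of Pds5a, with 8.3e-06.

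The regions were neither rich nor poor in CTCF peaks when compared with other protein-coding genes. The 36 peaks make 2.16 per 100 kb (exact 95% Poisson interval 1.51 to 2.99), and the median over all protein-coding gene regions was 2.19 with quartiles of 0.857 and 3.93. The genome as a whole had 1.27 per 100 kb. Single regions ran from 1.10 per 100 kb at Pds5a, 1.30 at Stag1 and 1.55 at Rad21, through 2.11 at Pds5b, 2.37 at Nipbl and 2.75 at Smc3, to 3.48 at Esco2 and 4.87 at Esco1. Of the 8 regions, 4 lay above the median of all protein-coding regions. With 2 to 7 peaks a region, the exact Poisson intervals of all 8 overlap, those at the ends being 0.133 to 3.96 at Pds5a and 1.96 to 10.03 at Esco1. Gene bodies held 12 peaks beyond 1 kb of the start, 1.38 per 100 kb of body (0.715 to 2.42), and the flanks held 3.00 per 100 kb (1.92 to 4.46). The order was the same over all protein-coding genes, at 1.65 in bodies and 2.77 in flanks. Over the 8 regions together the CTCF library had 7907 tags and the IgG library 6452, a scaled ratio of 1.17 (exact 95% interval 1.13 to 1.21). The median ratio over all protein-coding regions was 1.25, with quartiles of 0.945 and 1.64, and the ratios of 7 of the 8 regions lay between these quartiles.

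**Figure D1:**
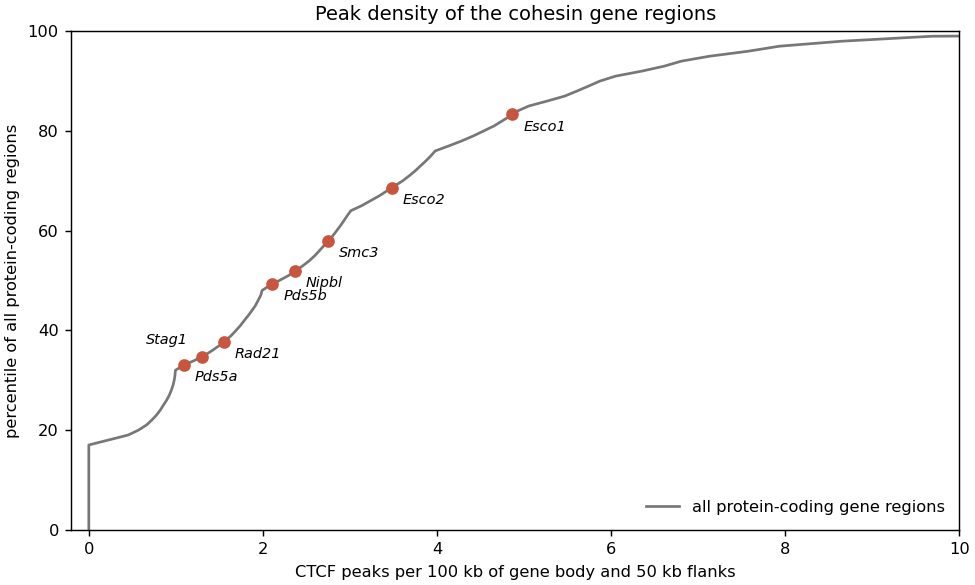
Percentile among all protein-coding gene regions (vertical axis) against CTCF peaks per 100 kb of gene body and 50 kb flanks (horizontal axis); the grey line is the distribution over all protein-coding regions and the points are the 8 cohesin genes. The points run from 1.10 peaks per 100 kb at Pds5a, percentile 33.0, to 4.87 at Esco1, percentile 83.3.

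A CTCF summit within 1 kb of the gene start was present at 1 of the 8 genes, Esco1, against 7.91% of all protein-coding genes. A summit inside the gene was present at 6 of 8, all but Rad21 and Esco2, against 36% of all protein-coding genes. The bodies run from 15 kb at Esco2 to 361 kb at Stag1, and gene length was not matched in this comparison. All 36 summits had more CTCF than IgG tags within 150 bp at an adjusted p of at most 0.05 (exact binomial test, Benjamini-Hochberg over all deposited peaks), as did 94.8% of all deposited peaks, which were called from the same tags.

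**Figure D2:**
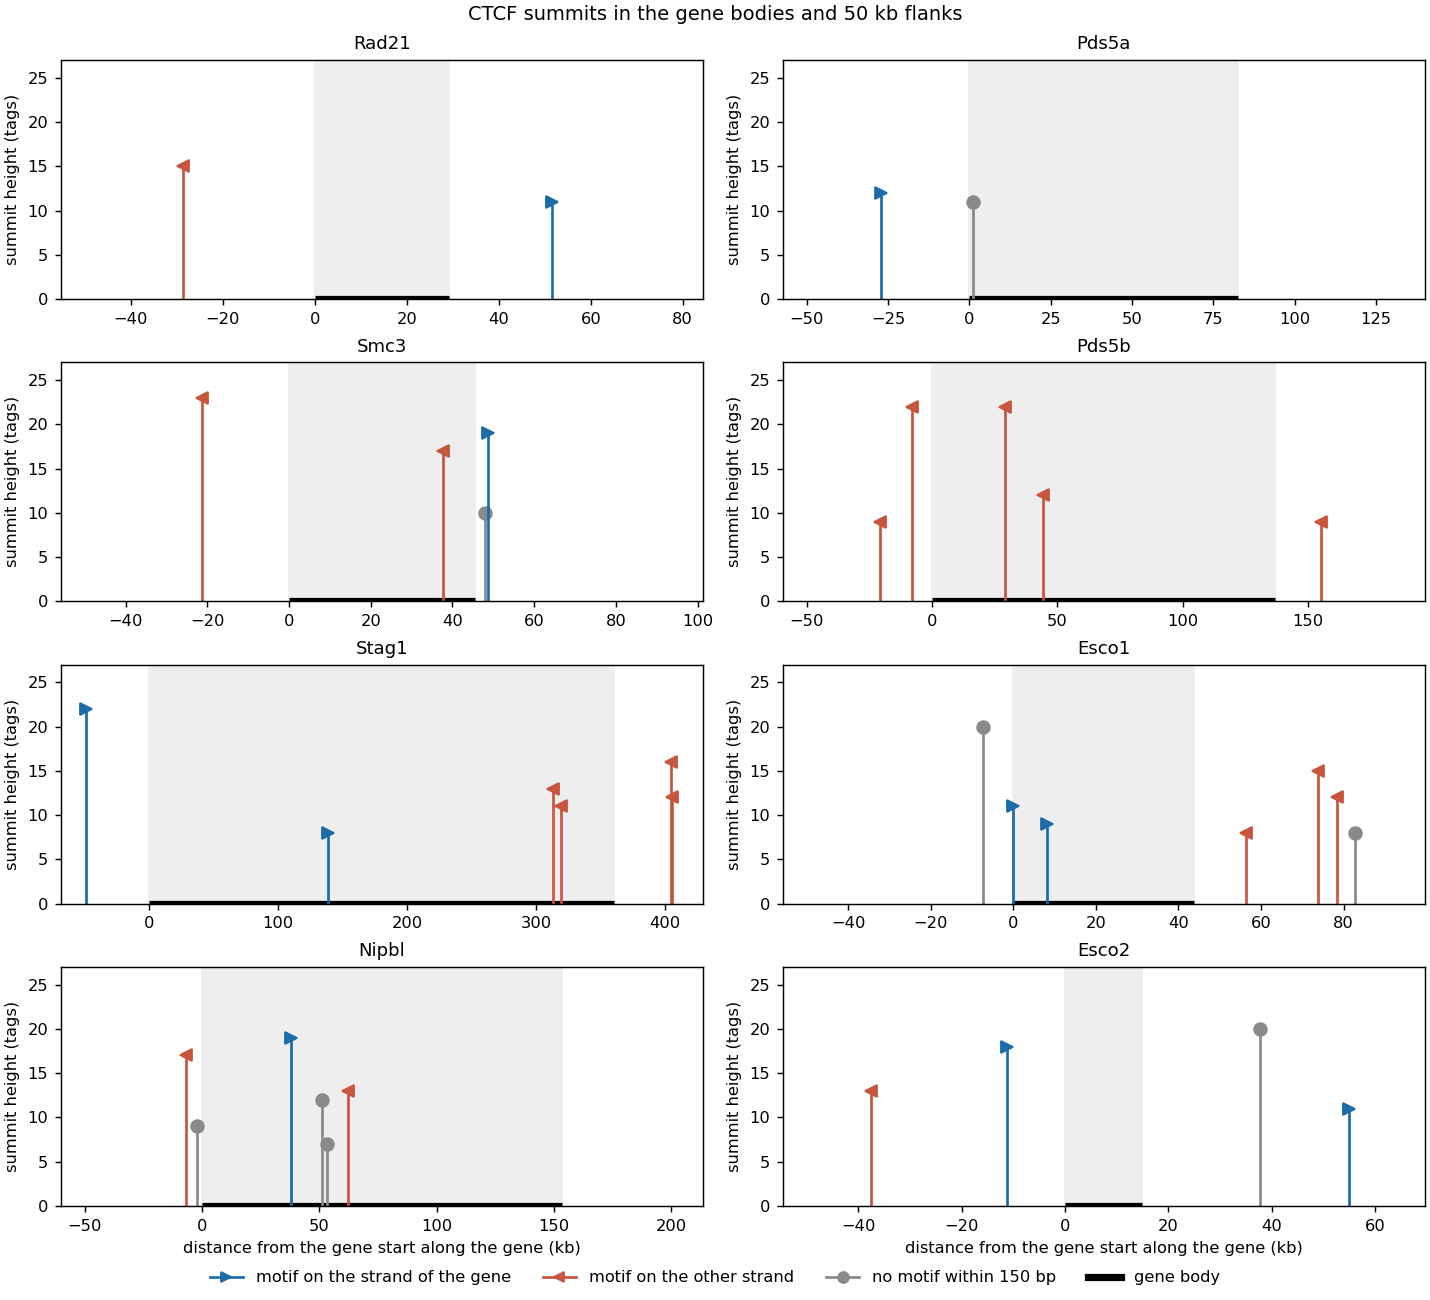
Height of each CTCF summit in tags (vertical axis) against its distance in kb from the gene start along the direction of transcription (horizontal axis) for the 8 genes; triangles point in the direction of the motif relative to the gene, grey circles have no motif within 150 bp, and the black bar with the shaded band is the gene body. Within 150 bp of the summits, Stag1 and Esco1 have motifs that point toward the gene on both sides, and all 5 motifs of Pds5b point against transcription. Rad21 and Esco2 have no summit in the body.

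Among the ring subunits the intervals of peak density overlap, and the region tag ratio was highest at Smc3. Rad21, the kleisin that closes the ring (chr15:51794151-51823306, minus strand), had no summit between 28.7 kb before its start and 22.4 kb after its end. The upstream summit, in intergenic DNA with the Aard gene as its nearest start, was 15 tags high and had 17 CTCF against 4 IgG tags within 150 bp. The downstream summit was 11 tags high, with 12 against 1 tags. At the Rad21 start itself there were 2 CTCF tags and 1 IgG tag within 1 kb. Over the region the CTCF library had 494 tags and the IgG library 467, a scaled ratio of 1.01 (exact 95% interval 0.886 to 1.15).

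Smc3, the SMC arm that ESCO enzymes acetylate (chr19:53674886-53720323, plus strand), had the tallest summit of the set. That summit lies in intergenic DNA 21.3 kb before the start, is 23 tags high and had 31 CTCF tags against 1 IgG tag within 150 bp, a ratio of 29.5 (4.92 to 1203). The 300 bases around it on the plus strand, chr19:53653448-53653747, contain 1 motif, in capitals, which reads here as its reverse complement and points against the direction of Smc3.
Smc3 upstream summit: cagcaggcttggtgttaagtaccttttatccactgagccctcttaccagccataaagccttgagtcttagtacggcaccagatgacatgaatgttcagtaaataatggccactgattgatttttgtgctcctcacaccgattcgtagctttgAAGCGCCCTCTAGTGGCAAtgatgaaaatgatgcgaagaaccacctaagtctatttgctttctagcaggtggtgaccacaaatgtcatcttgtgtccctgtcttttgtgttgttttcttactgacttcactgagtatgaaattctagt
The centre of the motif is 11 bp from the summit. Inside the gene, an intronic summit 37.8 kb after the start was 17 tags high and had the highest score of the 36 peaks, 312. Downstream, 3.15 kb beyond the gene end, a summit 19 tags high with 23 CTCF and 0 IgG tags carried a motif on the strand of the gene. A summit between it and the gene end was 10 tags high without a motif within 150 bp. Just beyond that window its peak holds a match on the strand opposite to the gene. That match has an exact matrix p of 4.2e-06, with 13 CTCF tags against 1. The Smc3 region as a whole had 838 CTCF and 479 IgG tags, a ratio of 1.67 (1.49 to 1.87), the highest of the 8 and at percentile 76.1 of all protein-coding regions. Outside its peaks the ratio was still 1.38 (1.22 to 1.56). This interval overlaps that of Esco2, 1.10 (0.962 to 1.25), but none of the other 6 outside-peak intervals, and the same ratio over the genome outside peaks was 0.897. The Smc3 region was also the richest in G and C, at 44.3% against 38.7% to 43.8% in the other regions, and the part of base composition in the ratio was not tested.

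Stag1, one of the STAG proteins through which the ring contacts CTCF (chr9:100498217-100858964, plus strand), is the longest gene of the set and had 6 summits, all with a motif. The tallest, 22 tags, is at the far edge of the upstream flank, 2448 bp upstream of the Nck1 start, and had 24 CTCF tags against 1. Inside the gene, 3 intronic summits were 8, 13 and 11 tags high at 139, 313 and 319 kb from the start. Downstream, summits of 16 and 12 tags lie 1.1 kb apart in introns of Pccb. Of the motifs within 150 bp of these summits, the first 2 run with the gene and the last 4 against it. The outermost of these 6 thus face each other across Stag1. Further from its summit, the last peak also holds a stronger match that runs with the gene, at chr9:100904332-100904360. That match has an exact matrix p of 7.8e-09, with 14 CTCF and 0 IgG tags within 150 bp. The annotated 5′ end had 2 CTCF and 5 IgG tags within 1 kb, and 11 of the 17 transcripts start at 45.7 to 46.0 kb further in. A motif in the untranslated region of that cluster, chr9:100543984-100544012, was the best match in the Stag1 region outside the peaks, with an exact matrix p of 1e-09.
Stag1 inner start cluster, plus strand: cagcgCGGCCAGCAGAGGGCGGTCgggac
It had 4 CTCF and 0 IgG tags within 150 bp and is in no deposited peak. The windows of 1 kb around these inner starts had 7 to 9 CTCF tags and 2 or 3 IgG tags. The Stag1 region, with its 6 summits in 461 kb, had a ratio of 1.01 (0.949 to 1.08), with 1877 CTCF and 1763 IgG tags.

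Nipbl, which loads cohesin (chr15:8241225-8394463, minus strand), had 6 summits, of which 4 lie in its introns and none downstream. The tallest was 19 tags high, 38 kb after the start, with 26 CTCF tags against 1 IgG tag. Its motif was weak, with an exact matrix p of 5.2e-06, although its score of 278 was among the 5 highest of the set. The other intronic summits were 12, 7 and 13 tags high at 51, 53.1 and 62.1 kb, and of these the last carried a motif. Upstream, a summit of 17 tags with a motif lies 6.76 kb before the start and a summit of 9 tags without a motif 2 kb before it. The Nipbl start had 6 CTCF and 0 IgG tags within 1 kb, too few tags for the test, with an exact interval of the ratio from 1.12 upward. The region ratio was 1.12 (1.03 to 1.21), and 0.983 (0.901 to 1.07) outside the peaks.

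The genes of the PDS5 proteins, which bind RAD21 and take part both in keeping the ring closed and in opening it, lie on the same chromosome, and the intervals of their peak densities overlap. Pds5a (chr5:66006499-66089095, minus strand) had the lowest peak density and 2 summits. One was 12 tags high and 27.1 kb upstream, with 13 CTCF and 2 IgG tags. The other was 11 tags high in coding sequence 1019 bp after the start, with 11 CTCF and 0 IgG tags and no motif at the threshold of 1e-05. Its best match had an exact matrix p of 3.1e-05. That summit lies just beyond the 1 kb window around the start, in which 9 CTCF tags and 1 IgG tag were counted (adjusted p = 0.103, exact binomial test).

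Pds5b (chr5:151476314-151613265, plus strand) had 5 summits, each with a motif, and all 5 motifs were on the strand opposite to the gene. Both of the tallest were 22 tags high, at 292 bp upstream of the N4bp2l2 start, 7.83 kb before Pds5b, and in a Pds5b intron at 29.1 kb. They had 25 CTCF tags against 1 and 27 against 2. Smaller summits of 9, 12 and 9 tags lay in an N4bp2l2 intron, in a second Pds5b intron at 44.3 kb and 18.3 kb beyond the gene end. The Pds5b start had no summit within 1 kb but had 10 CTCF and 0 IgG tags there (adjusted p = 0.0160, exact binomial test). A strong motif, with an exact matrix p of 2.4e-08, is centred 40 bp before the start on the strand of the gene, and 6 of the 10 tags are within 150 bp of it. It stands in capitals in the 300 bases before the start, chr5:151476014-151476313 on the plus strand, of which 66.3% are G or C.
Pds5b start: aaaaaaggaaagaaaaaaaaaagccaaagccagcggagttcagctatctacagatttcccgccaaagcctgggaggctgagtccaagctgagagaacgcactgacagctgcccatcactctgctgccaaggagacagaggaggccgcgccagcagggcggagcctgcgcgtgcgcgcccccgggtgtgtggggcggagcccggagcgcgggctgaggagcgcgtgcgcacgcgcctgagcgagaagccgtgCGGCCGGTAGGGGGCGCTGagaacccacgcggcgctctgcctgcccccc
A weaker match 487 bp after the start had no tag of either library within 150 bp. The Pds5b region had 1225 CTCF and 946 IgG tags, a ratio of 1.23 (1.13 to 1.34), and 1.10 (1.00 to 1.20) outside the peaks.

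Esco2 (chr14:66437875-66452831, minus strand), the acetyltransferase known for its role in S phase cohesion, had no summit in its short body and 4 in its flanks. The tallest, 20 tags high with 21 CTCF tags against 1, was 37.7 kb after the start with no motif at the threshold within 150 bp. A match elsewhere in its peak had 3 CTCF tags and 1 IgG tag within 150 bp. Upstream summits of 13 and 18 tags were in intergenic DNA and in a Ccdc25 intron, and the last summit was 11 tags high. This last summit was the only one of the 36 with 2 motif matches within 150 bp. Further from its summit, the Ccdc25 peak holds another match, on the strand opposite to Esco2. That match has an exact matrix p of 1.3e-06 and 23 CTCF tags within 150 bp, against 3.3e-06 and 12 at the match given above. At the Esco2 start 4 CTCF and 3 IgG tags were counted. The region ratio was 1.36 (1.20 to 1.54).

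Esco1, the other acetyltransferase of SMC3, had the densest region, with 7 summits, and the only summit within 1 kb of the start of one of the 8 genes. The gene lies on chromosome 18 from 10566510 to 10610350 on the minus strand. The start summit is 28 bp upstream of the annotated 5′ end, was 11 tags high with a score of 72.8, and had 11 CTCF and 2 IgG tags within 150 bp. Its motif, with an exact matrix p of 1.8e-07, is centred 79 bp before the start and runs with the gene. Within 1 kb of the start there were 22 CTCF and 7 IgG tags, a ratio of 2.99 (1.23 to 8.29), which did not pass the test over all gene starts (adjusted p = 0.0507, exact binomial test). A taller summit of 20 tags, with 23 CTCF tags against 2 and no motif, lies 98 bp upstream of the start of the neighbouring Snrpd1 gene and 7.35 kb from that of Esco1. A summit of 9 tags was found in an Esco1 intron at 8.16 kb, and 4 of 8 to 15 tags lay in introns of Greb1l downstream. The motifs at the start and in the intron ran with the gene and the 3 downstream motifs ran against it. The region ratio was 1.28 (1.14 to 1.44), and it was 1.02 (0.904 to 1.16) outside the peaks, with 23.1% of the CTCF tags of the region inside peaks.

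Across the 8 starts, CTCF tags within 1 kb were 2 at Rad21 and Stag1, 4 at Esco2, 6 at Nipbl, 9 at Pds5a, 10 at Pds5b, 13 at Smc3 and 22 at Esco1. The IgG tags were 0 at Nipbl and Pds5b, 1 at Rad21 and Pds5a, 2 at Smc3, 3 at Esco2, 5 at Stag1 and 7 at Esco1. CTCF tags were more numerous at 7 of the 8 starts, and over all protein-coding starts the medians were 7 CTCF and 5 IgG tags. Of the 8 starts, 4 had the 10 tags needed for the test and 2 passed it, Pds5b and Smc3, the latter with 13 against 2 tags, a ratio of 6.19 and an adjusted p of 0.0459 (exact binomial test). Of the 14949 starts tested, 16.6% passed with more CTCF tags. Neither start that passed has a deposited summit within 1 kb, and among tested starts of this kind 6.65% passed over all protein-coding genes, against 90.7% of those with a summit. At Smc3, 9 of the 13 tags lie within 150 bp of a motif centred 481 bp before the start, where 1 IgG tag was counted. With windows of 500 bp the only start of the 8 with enough tags for the test was that of Esco1, which passed with 14 against 2 tags, while Pds5b with 7 against 0 and Smc3 with 4 against 0 were not tested. Scaling by the tags outside the peaks gave 4 starts past the threshold, Smc3, Pds5a, Pds5b and Esco1. The share of all tested starts that pass with these windows or this scaling is not given here, and the 16.6% is for the main setting only. The share that passed rose with the G and C content of the start, from 9.99% under 50% to 29.3% at 60% or more, and the starts of Smc3 and Pds5b were at 60.8% and 60.5%. The other tested starts, which did not pass, were at 69.8% at Pds5a, the highest of the 8, and 57.7% at Esco1, and the Nipbl start, not tested, was at 63.3%. The part of base composition in these calls was not tested.

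**Figure D3:**
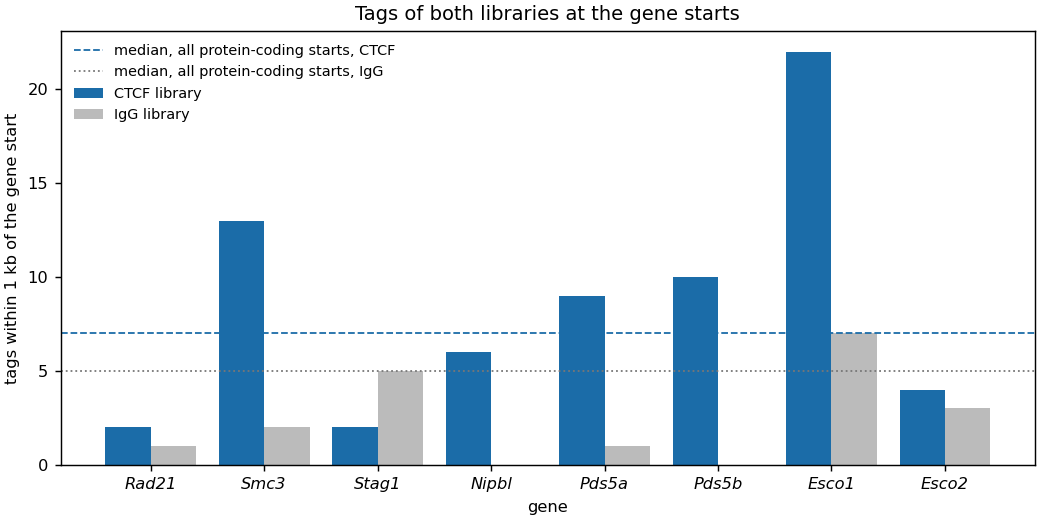
Tags within 1 kb of the gene start (vertical axis) in the CTCF library (blue bars) and the IgG library (grey bars) for each of the 8 genes; the lines mark the medians over all protein-coding starts, 7 CTCF and 5 IgG tags. The CTCF bar stands above the IgG bar at every gene but Stag1, and Esco1 has the most tags of both libraries.

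Summits in the 8 regions were about as tall as other CTCF summits. The median height was 12 tags (range 7 to 23) and that over all peaks was 13, with quartiles of 10 and 17. The 4 summits of at least 21 tags, a height that 12.0% of all peaks reach, were 1 at Smc3, 1 at Stag1 and 2 at Pds5b, and all 4 carried a motif. Summits with a motif had a median of 13 tags (n = 28) and those without 10.5 (n = 8), and over all peaks the medians were 14 and 11. By place, the median was 17 in the upstream flanks (n = 11, range 9 to 23), 12 in the bodies (n = 12, range 7 to 22) and 11.5 in the downstream flanks (n = 12, range 8 to 20), and these ranges overlap almost entirely.

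**Figure D4:**
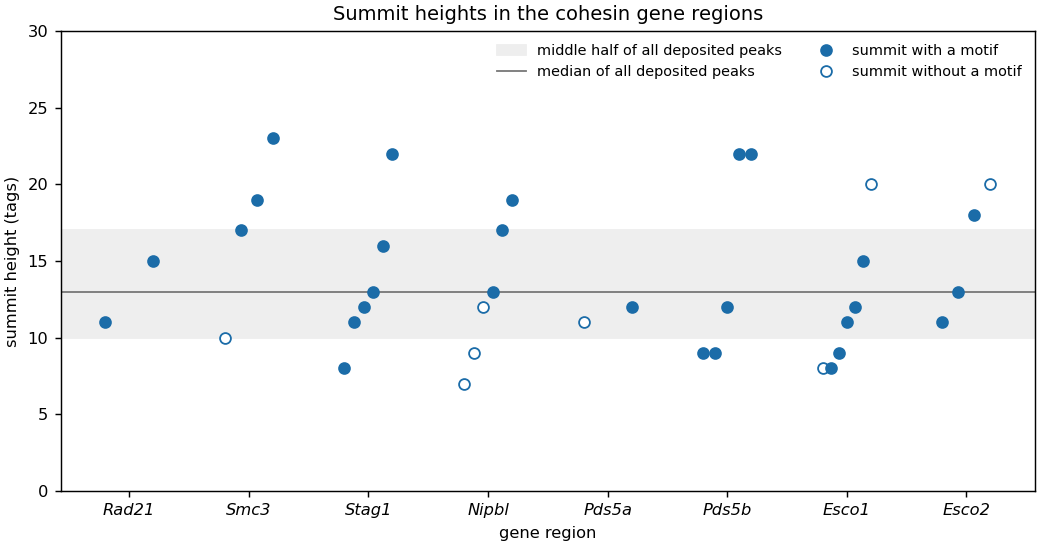
Height of each of the 36 summits in tags (vertical axis) by gene region (horizontal axis); filled points have a motif within 150 bp, open points have none, and the band and line are the quartiles and the median of all deposited peaks, 10 to 17 and 13 tags. Tall summits of at least 21 tags are found only at Smc3, Stag1 and Pds5b among these regions, and none of the 4 is open.

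The motifs at the summits ran with the gene in 10 of 28 cases, 35.7% (20.7 to 54.2), and this interval includes the 51.1% found over all protein-coding regions. Of 20 pairs of neighbouring motif-bearing summits, 13 pointed the same way, 65% (43.3 to 81.9), 3 pointed toward each other and 4 away from each other. Over the genome 50.0% of 24500 such pairs pointed the same way, within that interval, while 6117 pointed toward and 6121 away from each other. The nearest motif-bearing summits on the sides of a gene pointed toward each other at Stag1 and Esco1, away from each other at Rad21 and Smc3, and the same way at Pds5b and Esco2. These directions are of the best match within 150 bp of each summit. At Smc3, Stag1 and Esco2 a peak in the flank also holds a match further from its summit that points the other way. At Nipbl and Pds5a such a summit was present on the upstream side only.

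Most CTCF motif matches in the 8 regions were not in a deposited peak, but the CTCF library still had more tags there than the control. The matrix found 234 matches in the 1.67 Mb, of which 29 (12.4%) were within 150 bp of a summit and 198 (84.6%) were outside the peaks. The share at a summit was 7 of 17 for matches with an exact matrix p of at most 1e-07, 41.2% (21.6 to 64.0), then 16 of 78, 20.5% (13.0 to 30.8), for those up to 1e-06, and 6 of 139, 4.32% (1.99 to 9.10), for those up to 1e-05. At the 194 matches outside the peaks and more than 1 kb from any summit there were 378 CTCF and 129 IgG tags within 150 bp, a ratio of 2.79 (2.28 to 3.43). Positions 2000 bp to either side of these matches, 370 in all, had 470 CTCF and 475 IgG tags, a ratio of 0.942 (0.827 to 1.07), with a median G and C content of 40.4% against 41.9% at the matches. The ratio was 4.49 (1.95 to 12.0) for the strongest matches outside the peaks, 4.13 (2.81 to 6.22) for the middle class and 2.16 (1.68 to 2.81) for the weakest. Per match the tags were few, with a mean of 1.95 CTCF and 0.665 IgG tags, against 1.27 and 1.28 at the positions beside them. The higher ratio at the matches thus goes with fewer IgG tags as well as more CTCF tags. Many of these matches and the bases beside them are nearly identical to each other. Motifs at summits can lie in such sequence too. At the Pds5b summit in an N4bp2l2 intron, the 29 bases of the motif and its sides also occur at matches outside the peaks in the Rad21 and Smc3 regions. How tags of 35 bp align at such repeated sequence, and its part in the ratio, was not tested. The matches with the most tags outside the peaks were in a Stag1 intron at 300 kb from the start, with 13 CTCF and 3 IgG tags, and 44.6 kb upstream of Pds5a, with 11 and 5. Pds5a, the region with the lowest peak density, had 38 matches, of which 37 were outside the peaks.

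**Figure D5:**
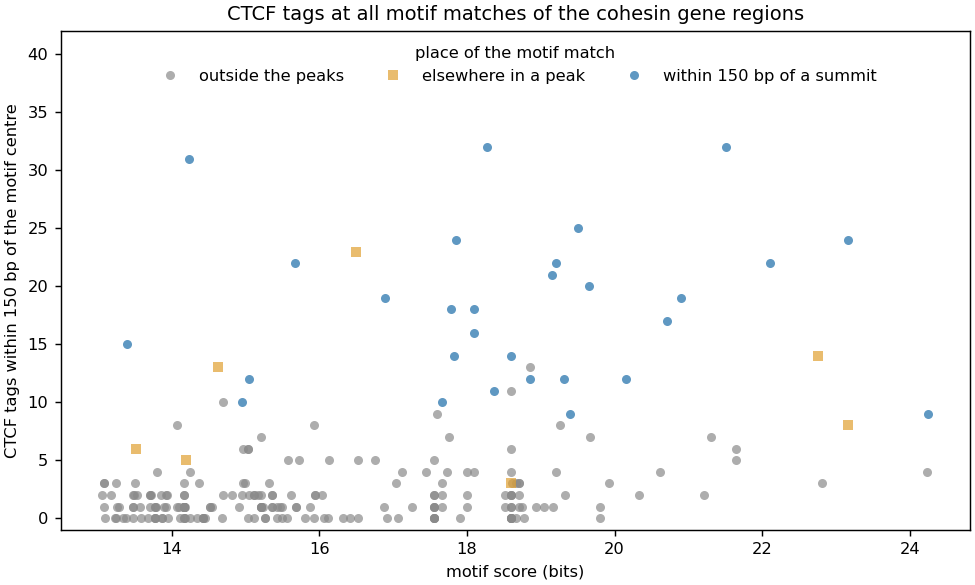
CTCF tags within 150 bp of the motif centre (vertical axis) against the motif score in bits (horizontal axis) for the 234 motif matches of the 8 regions; blue points are within 150 bp of a summit, yellow squares elsewhere in a peak and grey points outside the peaks. Matches outside the peaks reach 13 tags, and strong matches with few tags are found throughout the range of scores.

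Among 14 other genes of the complex and its regulation, including meiotic forms and separase, none had a CTCF summit within 1 kb of the start, against 7.91% of all protein-coding genes. Of the 7 starts with enough tags 0 passed the exact binomial test, against 16.6% of all starts tested. With so few genes, counts of 0 are not set apart from these shares. The start of Sgol1, which protects centromeric cohesin, had the only unadjusted p under 0.05, 0.0372 with 20 CTCF and 8 IgG tags (adjusted p = 0.153, exact binomial test). Of these 14 genes, 6 had a summit inside the gene, against 36% of all protein-coding genes. Their median density was 1.36 peaks per 100 kb (range 0 to 6.25), against 2.19 over all protein-coding regions. The regions of Smc1a, the SMC partner of Smc3, and Stag2, the close relative of Stag1, are on the X chromosome and had 0 peaks, with ratios of 0.889 (0.754 to 1.05) and 0.818 (0.719 to 0.931). Regions without a peak were common, as the density over all protein-coding regions was 0 up to percentile 17. The region of Hdac8, which deacetylates SMC3, is also on the X chromosome and had 3 peaks and a ratio of 1.01 (0.909 to 1.13). The IgG tags of Smc1a, Stag2 and Hdac8 were 20.7, 22.5 and 20.2 per 10 kb, against 32.9 to 43.4 in the 8 regions described above, all of which are autosomal. Wapal, which releases cohesin, had 2 downstream summits of 12 and 14 tags, and Mau2, the partner of Nipbl in loading, had 2 summits in its flanks. Starts of Wapal and Mau2 had 4 and 5 CTCF tags against 2 and 4 IgG tags.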

How the data were processed

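The authors deposited, for each library, the aligned tags as 1 line with a count of 1 each, not normalized, in mm9. The aligner is not given in the sources used here. For the CTCF library they also deposited peaks, whose score is the log10 of the MACS p-value against IgG multiplied by -10 (lowest 50, a p-value of 1e-05), and summits, whose signal is the number of tags piled up there. MACS 1.4 and mm9 are named in the submitters' processing notes.

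From these files, tags were counted with Python 3.11.15, numpy 2.4.6 and scipy 1.17.1 (figures with matplotlib 3.10.9) after a move of 93 bp toward the fragment centre. The fragment length of 187 bp was measured at the 1000 peaks with the highest scores. Genes came from GENCODE M1 and sequence from NCBI m37 (mm9). The motif matrix was built from 192 sequences, 19 bases long, with a pseudocount of 1 and expected frequencies of 0.29 (A, T) and 0.21 (C, G). These are the CTCF motif matches in the study's supplementary sheet of motifs detected at RAD21 sites in ESCs, not sequences chosen by CTCF binding. A match needed an exact matrix p of at most 1e-05 on either strand, and the motif reads forward with its G-rich part toward the 3′ side. Tests were exact binomial tests, two-sided, against the split of the library totals, with Benjamini-Hochberg adjustment over all gene starts with at least 10 tags or over all peaks. Proportions carry 95% Wilson intervals, densities exact Poisson intervals and ratios exact intervals. The functions were tested on simulated data. The member genes, the other cohesin genes and the sites named (summits at the start, the 3 tallest of each region and the nearest with a motif on each side) were chosen with earlier results of these data known, and the motif matches outside the peaks were named after their values were seen. RAD21 libraries and expression data were not analysed here. Alternatives varied the score threshold, the windows, the flanks, the scaling, the tag position and the motif threshold.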

Additional observations from a re-analysis of the deposited data

How the results depend on the processing

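Of 22 alternative values, 11 stayed close to the reported ones. Close means within 1.5 times for counts, and within the counting error or, for height, the interval of the median for other values. The CTCF to IgG ratio over the 8 regions stayed above 1 under the alternatives. Counts, heights and densities have no direction that could change. When peaks scoring under 100 were left out, peak density fell to 1.26 per 100 kb, the median height rose to 17 tags, and 0 genes had a summit at the start, since the Esco1 start peak is under that score. With windows of 2 kb the number of genes with a start summit was 3 (Esco1, Pds5a and Nipbl), and with peak overlap in place of summits it was 2 (Esco1 and Pds5a). The ratio over the 8 regions was 1.17 (1.13 to 1.21). It was 1.30 when scaled by the tags outside all peaks. With the tags outside the peaks alone it was 1.03 (0.997 to 1.07), an interval that includes 1. The motif share was 88.9% at a threshold of 1e-04 and 38.9% within 50 bp. The number of starts past the binomial test, 2, became 1 with windows of 500 bp (Esco1, since Smc3 with 4 and Pds5b with 7 tags were under the minimum of 10 and not tested) and 4 with scaling by the tags outside all peaks. It was also 2 with tags not moved, but these were Smc3 and Esco1, because Pds5b had 9 tags and was not tested. The matching values over all genes, starts or peaks under these alternatives are not given here. The counts and values above therefore have no background under the same settings. Where the setting itself does not account for a change, the cause was not tested. No paired analysis was possible because each antibody has 1 library and no replicate to pair or leave out. At this depth a start with fewer than 10 tags, as at Rad21, Stag1, Nipbl and Esco2, was not tested, so no call could be made there.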
